A study of Mus musculus with 13 samples.

Results

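Col1a1, Col1a2, Col3a1, Dcn, Lum, Ogn, Igf2 and H19 are genes of the fibroblasts that build the meninges, the membranes around the brain. These 8 genes, of the 54307 entries of the count table, were chosen by name and with earlier results of these data known. They were followed in whole-brain RNA of 13 mice of the C57BL/6 strain. The mice carried 4 genotypes of Adar, the gene of the RNA-editing enzyme ADAR1, whose long form carries the domain that binds Z-form nucleic acids, where the P195A substitution lies. The groups were 3 P195A/+ animals of 43 days with a substituted and a wild-type allele, 4 P195A/P195A animals of 42 or 48 days with 2 substituted alleles, 3 P195A/- animals of 42 days with a substituted and a null allele, and 3 wild-type animals (wt), of 48, 48 and 74 days. The long genotype label of the P195A/- animals writes P195A on both sides beside a knockout allele, so the short label was used. Each genotype held 1 male, each library came from a separately listed animal, and no fibroblasts were isolated.

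Fibrillar collagens are made by fibroblasts as long triple helices that bundle into the fibres of connective tissue. Type I collagen joins chains encoded by Col1a1 and Col1a2, and type III collagen, common in soft and vascular tissue, is built from Col3a1 chains alone. Dcn (decorin), Lum (lumican) and Ogn (osteoglycin) encode small leucine-rich proteoglycans that sit on such fibres and set their spacing and width. Igf2 and H19 are neighbouring imprinted genes: Igf2 encodes a growth factor read from the paternal copy in most tissues, H19 a long noncoding RNA read from the maternal copy, and in the rodent brain Igf2 RNA is found mainly in the meninges and the choroid plexus.

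Library totals ranged from 13539148 to 22399005 estimated counts, of which the 8 genes took 0.0110 to 0.0232%. Levels are CPM, counts scaled to a common library size, after TMM scaling, which corrects library totals for a few very abundant genes, and CPM per kilobase of exon where genes are compared. Of 50 other meningeal fibroblast genes 46 were expressed highly enough to be tested, led by the retinoic acid enzyme gene Aldh1a1 (mean 121 CPM) and the growth factor receptor gene Pdgfra (mean 68.3 CPM). Adar itself measured 232 to 245 CPM in P195A/+, 282 to 346 CPM in P195A/P195A, 196 to 204 CPM in P195A/- and 165 to 189 CPM in wt; this gene total cannot show the substitution. In bulk RNA, fewer cells of a type and less RNA per cell cannot be told apart, and listed genes may also be read in other cells.

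Some libraries had high levels of muscle or pituitary genes, and 1 of them weighs on several values below. Whether tissue next to the brain was taken along was not tested. All 11 genes of a skeletal muscle list were highest in P195A/- replicate 2, where they summed to 296 CPM and Acta1, muscle actin, reached 91.5 CPM. The muscle sum was 4.77 to 40.6 CPM in P195A/+, 5.53 to 19.5 CPM in P195A/P195A, 6.70 to 296 CPM in P195A/- and 6.35 to 8.24 CPM in wt, and 7 of the 11 genes were at 0 in at least 1 library. The hormone genes of the pituitary, led by Gh and Prl, summed to more than 100 CPM in 5 libraries and spanned 3.79 to 953 CPM in P195A/+, 11.2 to 534 CPM in P195A/P195A, 2.59 to 134 CPM in P195A/- and 2.98 to 840 CPM in wt. Mitochondrial genes took 1.57% of the counts of P195A/- replicate 3, the only P195A/- male, and 0.46 to 0.79% in the other libraries. The only animal of 74 days was wt replicate 3. No P195A/+ or P195A/- animal shared an age with a wt animal, so age and genotype cannot be told apart in those comparisons with wt.

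Per kilobase of exon, Igf2 was the most abundant of the 8, averaging 8.65 CPM per kb over the 13 libraries. Col1a1 averaged 5.08 CPM per kb and Col1a2 3.07 CPM per kb, with Ogn at 2.10, Dcn at 1.86, Col3a1 at 1.41 and Lum at 1.24 CPM per kb. H19 was lowest at 0.637 CPM per kb, and that mean holds 1 library far above the rest. The ranges over libraries of neighbours in this order overlapped, for example 5.88 to 11.8 CPM per kb for Igf2 and 2.96 to 11 for Col1a1. Exon length here is the union over all annotated transcripts, 12426 bases for Col1a2 and 6563 for Col1a1, and the order depends on it. In CPM, Col1a2 averaged above Col1a1 in P195A/+, P195A/P195A and wt (39.1 against 31.1 CPM in wt). In P195A/- it averaged below Col1a1 (38.5 against 48.6 CPM). Between animals Dcn and Ogn varied least, with highest-to-lowest ratios of 1.91 and 1.92. The ratios were 2.01 for Igf2, 2.34 for Col1a2 and 2.49 for Lum, and 3.71 for Col1a1, 6.91 for Col3a1 and 97.9 for H19. Without P195A/- replicate 2 the last 3 ratios were 2.71, 5.29 and 14.4.

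**Figure D1:**
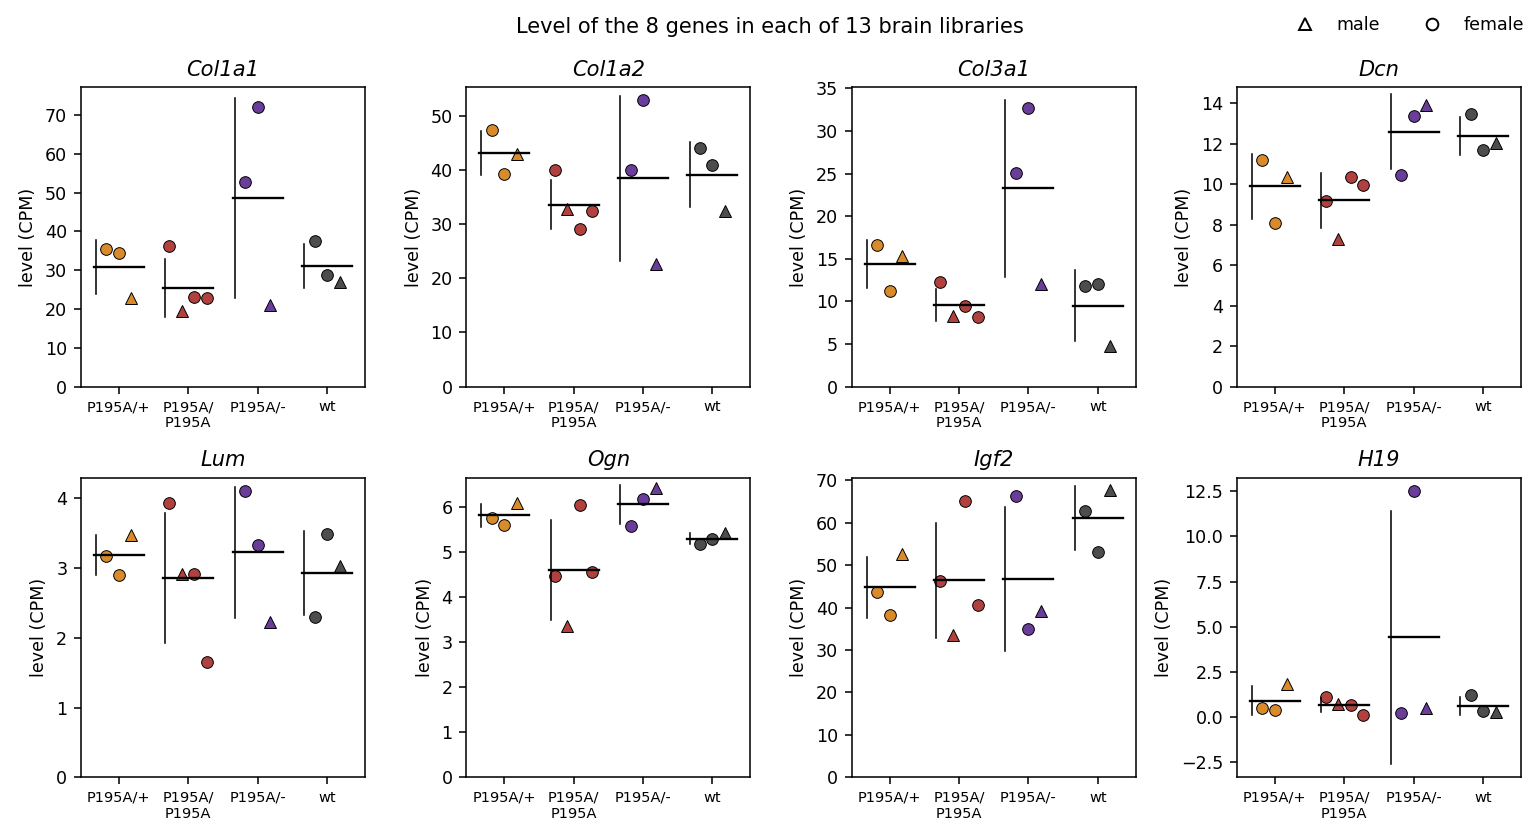
CPM of each gene in every library (circles females, triangles males), with the mean as a horizontal line and the SD as a vertical one, linear axes. Col3a1 is high in both P195A/- females (25.0 and 32.7 CPM), and H19 stands at 12.5 CPM in P195A/- replicate 2 alone.

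Col1a1 and Col3a1 had their 2 highest levels in the P195A/- females, and Col1a2 its highest in 1 of them, but no collagen gene among the 8 passed edgeR's test over all genes. Col3a1, on chromosome 1 (45311538 to 45349706, plus strand, GRCm38), had 16.7, 11.2 and 15.3 CPM in P195A/+, 12.3, 8.30, 9.43 and 8.20 CPM in P195A/P195A, 25.0, 32.7 and 12.1 CPM in P195A/-, and 11.8, 12.0 and 4.73 CPM in wt. Both P195A/- females were above every other library, the P195A/- male was just above the highest wt library, and the 74-day wt animal was the lowest of all. Its fitted log2 fold change in P195A/- against wt was 1.30 ± 0.37 (SE; 95% interval 0.49 to 2.10), a 2.45-fold difference, with a Benjamini-Hochberg adjusted p of 0.265 (unadjusted 0.00396) in edgeR's quasi-likelihood test.

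Against P195A/P195A the Col3a1 level of P195A/- was higher by a log2 fold change of 1.28 ± 0.34 (SE), with an adjusted p of 0.452 in edgeR's quasi-likelihood test. The call depended on the method: DESeq2 called Col3a1 in P195A/- against wt (log2 1.29, adjusted p = 0.0212) and against P195A/P195A (log2 1.28, adjusted p = 0.0258), and edgeR on females alone called it against P195A/P195A (log2 1.54, adjusted p = 0.0214). Over 13 fits that each left out a library, edgeR's log2 fold change against wt ran from 0.97 without P195A/- replicate 2 to 1.62 without P195A/- replicate 3, with adjusted p between 0.204 and 0.614. Without both P195A/- replicate 2 and wt replicate 3 it was 0.64 (adjusted p = 0.768, edgeR), and with age as a term 0.68 (adjusted p = 0.996, edgeR). The age term draws only on P195A/P195A and wt, the groups of mixed age. Every P195A/- animal was younger than every wt animal, so that fit cannot tell age from genotype.

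Col1a1, on chromosome 11 (94936224 to 94953042, plus strand), had 35.4, 34.5 and 22.9 CPM in P195A/+, 36.3, 19.4, 23.0 and 22.7 CPM in P195A/P195A, 52.8, 72.0 and 21.0 CPM in P195A/-, and 37.7, 28.7 and 27.1 CPM in wt. The P195A/- libraries spanned the whole range of the gene but for 1 library: their females were the 2 highest of the 13 and their male the second lowest. The log2 fold change was 0.94 ± 0.36 in P195A/- against P195A/P195A (SE, adjusted p = 0.682, edgeR) and 0.64 ± 0.38 against wt (SE, adjusted p = 0.585, edgeR). Without P195A/- replicate 2 these became 0.54 and 0.24.

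Col1a2, on chromosome 6 (4504814 to 4541544, plus strand), had 47.3, 39.3 and 42.9 CPM in P195A/+, 40.0, 32.8, 29.1 and 32.5 CPM in P195A/P195A, 39.9, 52.9 and 22.6 CPM in P195A/-, and 44.0, 40.9 and 32.4 CPM in wt. P195A/- held both the highest and the lowest library, and no genotype stood clear of another. The 3 log2 fold changes against wt were 0.14 for P195A/+ animals, -0.22 for P195A/P195A animals and -0.02 for P195A/- animals.

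Set against Col1a2 within each library, both other collagen genes were higher in every P195A/- brain than in any of the other 10. The ratio of Col3a1 to Col1a2 per kilobase averaged 0.420 ± 0.051 in P195A/+, 0.360 ± 0.047 in P195A/P195A, 0.751 ± 0.064 in P195A/- and 0.299 ± 0.10 in wt (SD, n = 3, 4, 3 and 3). It was 0.794, 0.782 and 0.677 in the P195A/- libraries, and 0.185 to 0.452 in the other 10. The ratio of Col1a1 to Col1a2 was 2.50, 2.58 and 1.76 in the P195A/- libraries and 1.01 to 1.72 in the other 10. Both ratios share Col1a2 as divisor, and their absolute size depends on the exon lengths used. In P195A/- replicate 3 Col1a2 was at its lowest of all libraries, 22.6 CPM, with Col1a1 at 21.0 and Col3a1 at 12.1 CPM. How many other pairs of genes separate the genotypes in this way was not counted.

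The muscle sums of P195A/- replicates 1, 2 and 3 were 6.70, 296 and 8.75 CPM, and the part of muscle RNA in these ratios was not tested. The ratios were chosen after the values were seen, and 8 comparisons of them were made. For both ratios the exact two-sided permutation test gave p = 0.10 for P195A/- against wt and 0.0571 against P195A/P195A, each the smallest p these group sizes allow, and a Benjamini-Hochberg adjusted p of 0.200.

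**Figure D2:**
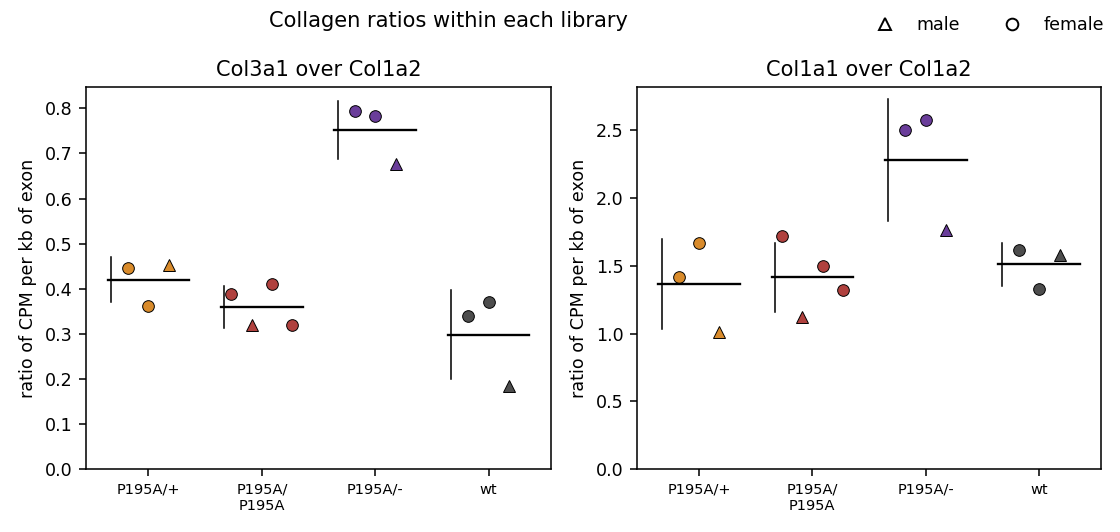
Ratio of CPM per kb of exon within each library, for Col3a1 over Col1a2 (left) and Col1a1 over Col1a2 (right), with mean (horizontal line) and SD (vertical line) per genotype. The 3 P195A/- libraries lie above the other 10 in both panels, narrowly so for Col1a1 (1.76 against 1.72).

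The proteoglycan genes had log2 fold changes between -0.42 and 0.45 in the 4 comparisons. Dcn, on chromosome 10 (97479609 to 97518143, plus strand), had 11.2, 8.10 and 10.4 CPM in P195A/+, 9.19, 7.31, 10.4 and 9.95 CPM in P195A/P195A, 10.5, 13.3 and 13.9 CPM in P195A/-, and 13.4, 11.7 and 12.0 CPM in wt. Every P195A/+ and P195A/P195A library was below every wt library, while the P195A/- libraries spanned the wt values. The log2 fold change of Dcn was -0.42 ± 0.17 in P195A/P195A against wt (SE, adjusted p = 0.83, unadjusted 0.0219, edgeR) and -0.32 ± 0.18 in P195A/+ against wt (SE, adjusted p = 0.999, edgeR). Dcn was 0.45 ± 0.17 higher on the log2 scale in P195A/- than in P195A/P195A (SE, adjusted p = 0.651, edgeR).

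Lum lies beside Dcn on chromosome 10 (97565128 to 97572703, plus strand). It averaged 3.18 ± 0.29 CPM in P195A/+, 2.86 ± 0.93 in P195A/P195A, 3.23 ± 0.94 in P195A/- and 2.94 ± 0.60 in wt (SD), from as few as 28.1 estimated counts in a library. All 4 genotypes overlapped. Ogn, on chromosome 13 (49608046 to 49624501, plus strand), had 5.74, 5.61 and 6.10 CPM in P195A/+, 4.47, 3.35, 6.05 and 4.55 CPM in P195A/P195A, 5.59, 6.18 and 6.42 CPM in P195A/-, and 5.18, 5.29 and 5.42 CPM in wt. All P195A/+ and all P195A/- libraries were above all wt libraries, by log2 fold changes of 0.13 ± 0.21 and 0.20 ± 0.21 (SE), neither past its test (adjusted p = 0.999 and 0.767, edgeR).

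Igf2, on chromosome 7 (142650766 to 142666816, minus strand), was highest on average in wt brains and overlapped between most genotypes. It had 43.6, 38.1 and 52.5 CPM in P195A/+, 46.3, 33.6, 65.1 and 40.5 CPM in P195A/P195A, 66.2, 34.9 and 39.2 CPM in P195A/-, and 62.7, 53.0 and 67.7 CPM in wt. All 3 P195A/+ libraries were below all wt libraries, P195A/+ replicate 3 by a narrow margin, whereas P195A/P195A and P195A/- each held a library within the wt range. The log2 fold changes against wt were -0.45 ± 0.26 for P195A/+ animals, -0.40 ± 0.24 for P195A/P195A animals and -0.39 ± 0.26 for P195A/- animals (SE), with adjusted p of 0.999, 0.836 and 0.619 in edgeR's quasi-likelihood test. Single libraries moved these values: the P195A/- value was -0.73 without P195A/- replicate 1 and -0.22 without P195A/- replicate 2, and the P195A/P195A value was -0.60 without P195A/P195A replicate 3. An antisense gene, Igf2os, overlaps Igf2, and the sources used here do not say whether strand was used in counting, so its reads may be included.

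H19, also on chromosome 7 (142575529 to 142578143, minus strand), was low in most brains and high in 1. It had 0.51, 0.37 and 1.84 CPM in P195A/+, 1.09, 0.72, 0.64 and 0.13 CPM in P195A/P195A, 0.22, 12.5 and 0.51 CPM in P195A/-, and 1.19, 0.35 and 0.30 CPM in wt. P195A/- replicate 2 held 205 estimated counts of H19, and the other 12 libraries 2.16 to 38.6. The fitted log2 fold change of 2.84 ± 1.30 in P195A/- against wt (SE, adjusted p = 0.479, edgeR) became -0.69 without that library, and the 2.78 ± 1.18 against P195A/P195A (SE, adjusted p = 0.71, edgeR) became -0.75. DESeq2 gave no adjusted p for H19 in any of the 4 comparisons of genotype pairs.

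The 2 libraries highest in H19 were also the 2 highest in muscle genes. P195A/- replicate 2, first in H19, was first in muscle RNA, and P195A/+ replicate 3, second in H19 at 1.84 CPM, was second in muscle RNA at 40.6 CPM. Igf2 in P195A/- replicate 2 was 34.9 CPM, the second lowest of the 13. Across the 13 libraries the mean standardised log2 level of the 7 tested muscle genes and log2 H19 had Pearson's r = 0.88 (permutation, adjusted p = 0.0203 over 32 relations of the 8 genes with 4 lists) and Spearman's rho = 0.64 (permutation, adjusted p = 0.250). Without the 2 libraries just named r was 0.40, so the relation rests on them, and with genotype means removed r was 0.89 (permutation within genotypes, adjusted p = 0.166). Between Igf2 and H19, r was -0.28 (permutation, adjusted p = 0.583 over 28 pairs) and rho -0.30 (permutation, adjusted p = 0.709), and r without the 2 libraries farthest from the median of Igf2 was -0.12.

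**Figure D3:**
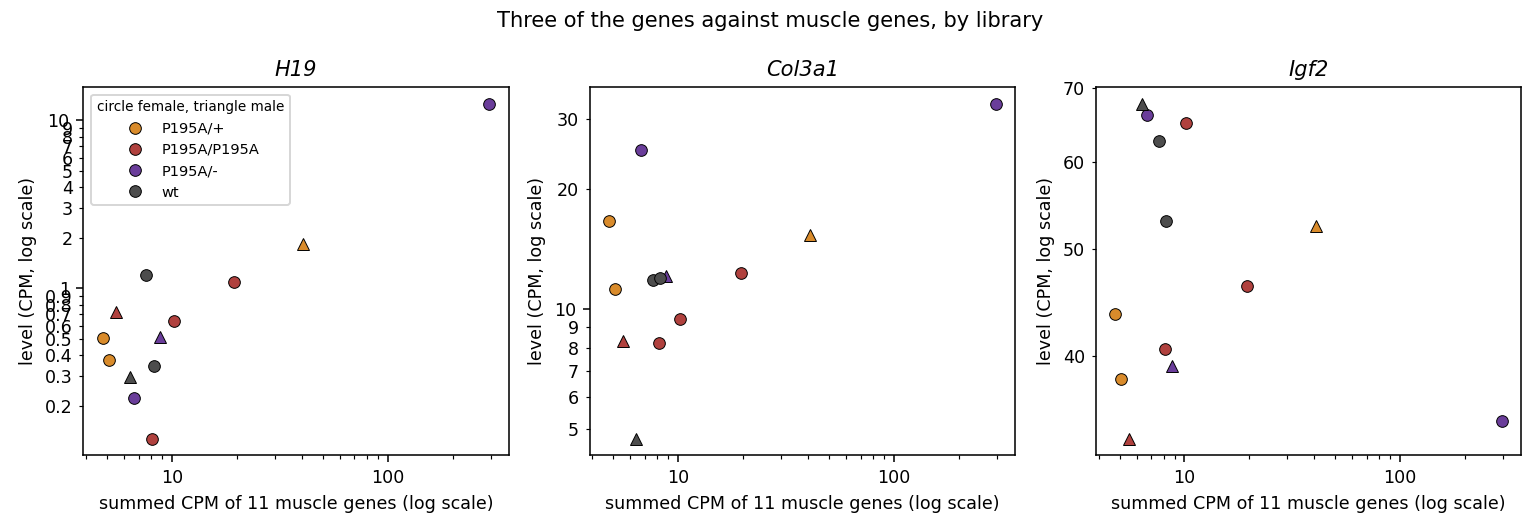
CPM of H19, Col3a1 and Igf2 against the summed CPM of 11 muscle genes, 1 point per library, both axes logarithmic. P195A/- replicate 2 lies far to the right at 296 CPM of muscle RNA; its H19 and Col3a1 are the highest of the 13 and its Igf2 the second lowest.

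ADAR1 changes adenosine to inosine, which is read as G, and the per-library tables of base counts listed 2 such positions inside the 8 genes. Both lay in Igf2, in the 3′ untranslated part of exon 4, and none in the other 7 genes. They are shown because ADAR1 makes changes of this kind, but whether it made these was not tested. The 30 transcript bases around them, from the minus strand of chr7:142653252-142653281 (GRCm38, GENCODE M21 transcripts), carry the listed adenosines in capitals, at bases 9 and 22 of the window:
Igf2: caggtggcAtgtcattgcttcAgtgccctc

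At the first adenosine, position 142653273, G took 33.3, 26.9 and 53.3% of reads in P195A/+, 48.3, 23.5, 26.9 and 13.5% in P195A/P195A, 26.1, 25.8 and 28.3% in P195A/-, and 20.0, 38.5 and 26.0% in wt. The means were 37.9 ± 13.8% in P195A/+, 28.1 ± 14.6% in P195A/P195A, 26.7 ± 1.4% in P195A/- and 28.2 ± 9.4% in wt (SD, n = 3, 4, 3 and 3), and the genotypes overlapped. Depth was 17 to 53 reads, so a library's 95% Wilson interval was wide, for example 36.1 to 69.8% for the highest value, P195A/+ replicate 3, and 5.91 to 28% for the lowest, P195A/P195A replicate 4.

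The second adenosine, position 142653260, had fewer G reads. G made up 14.3 and 8.82% of reads in 2 of 3 P195A/+ libraries, 15.6, 5.56, 16.0 and 2.56% in the 4 P195A/P195A libraries, 6.06 and 12.1% in 2 of 3 P195A/- libraries, and 5.56, 3.33 and 5.88% in wt. In each library that listed both sites it was below the first. The site was not listed in P195A/+ replicate 1 and P195A/- replicate 1; the tables hold only positions where a read differed from the reference, so its level there is 0 or unread. Intervals cover counting error only, and no test was made with these few reads.

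**Figure D4:**
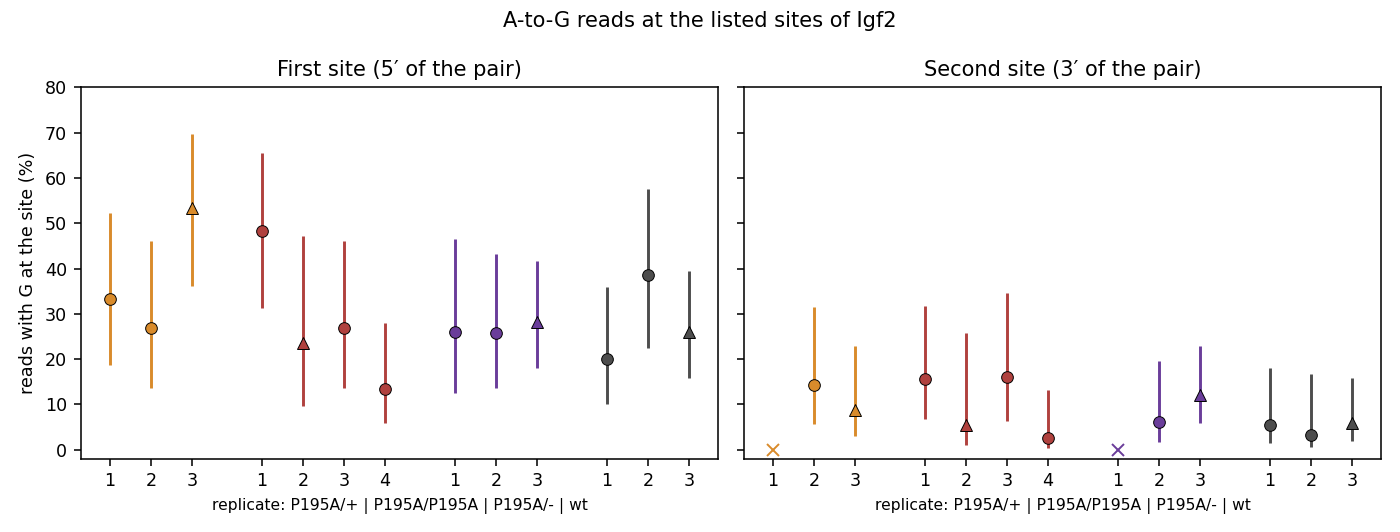
Percent of reads with G at the listed Igf2 adenosines in each library (circles females, triangles males), with 95% Wilson intervals as vertical lines; a cross marks a library that did not list the site. The first site lies between 13.5 and 53.3% with overlapping genotypes, and the second between 2.56 and 16.0%.

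Counted over the 8 genes, no member passed edgeR's quasi-likelihood test at a Benjamini-Hochberg adjusted p under 0.05 in any comparison. For P195A/+ against wt this was 0 of 8, where 0.0100% of all 19962 genes passed, and 0 of 8 passed the same limit before adjustment, a limit that 4.48% of all genes passed. For P195A/P195A against wt it was 0 of 8 (0.0501% of all genes), and 1 of 8, Dcn, lower, at the unadjusted p (5.89% of all genes). For P195A/- against wt it was 0 of 8 (0.0351% of all genes), and 1 of 8, Col3a1, higher, at the unadjusted p (10.6% of all genes).

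For P195A/- against P195A/P195A it was 0 of 8 (0.0401% of all genes), and 4 of 8, Col1a1, Col3a1, Dcn and H19, all higher, at the unadjusted p (6.82% of all genes). The test for any difference among the 4 genotypes called 0 of 8 (0.115% of all genes), with Col3a1 and Dcn at the unadjusted p (8.59% of all genes); their adjusted p were 0.380 and 0.548 (edgeR). DESeq2 called 1 of the 8, Col3a1, in P195A/- against wt, in P195A/- against P195A/P195A and in the test of any difference (adjusted p = 0.0117).

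Members whose libraries did not overlap between genotypes numbered 3 of 8 for P195A/+ against wt (Ogn higher, Dcn and Igf2 lower), where 11.9% of all genes did not overlap. They numbered 1 of 8 for P195A/P195A against wt (Dcn lower), against 6.46% of all genes. For P195A/- against wt 2 of 8 did not overlap (Col3a1 and Ogn higher), against 20.2% of all genes, and for P195A/- against P195A/P195A 1 of 8 (Dcn higher), against 6.68%. The median log2 fold change of the 8 genes was 0.12 in P195A/+ against wt, -0.21 in P195A/P195A against wt, 0.16 in P195A/- against wt and 0.42 in P195A/- against P195A/P195A. The median over all tested genes was 0.00, 0.01, 0.02 and 0.00 in the same 4 comparisons, the first 3 of which share the wt libraries.

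**Figure D5:**
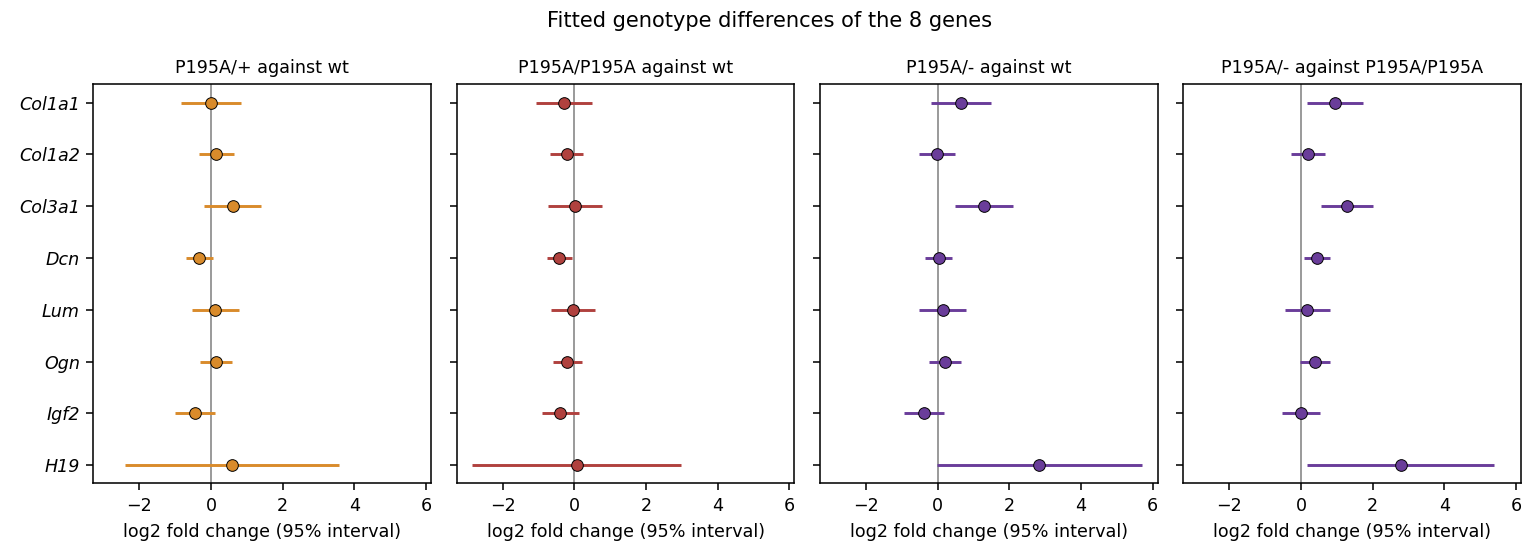
Fitted log2 fold change of each gene with its 95% interval in 4 comparisons; 0 is no difference. The interval of Col3a1 lies above 0 in both P195A/- comparisons. Those of Col1a1, Dcn and H19 lie above 0 in P195A/- against P195A/P195A, and that of Dcn lies below 0 in P195A/P195A against wt. The H19 intervals are the widest, and no gene passed the adjusted test over all genes.

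The 3 collagen genes had lower levels in males than in females, past the test only before adjustment. Col1a1 had a lowest, median and highest of 19.4, 22.0 and 27.1 CPM in the 4 males, and of 22.7, 35.4 and 72.0 CPM in the 9 females. The male was the lowest library of its genotype in 4 of 4 genotypes for Col1a1, and in 2 of 4 for Col1a2 and Col3a1. With genotype in the fit the log2 fold changes of males over females were -0.71 ± 0.20 for Col1a1, -0.34 ± 0.15 for Col1a2 and -0.62 ± 0.23 for Col3a1 (SE), with unadjusted p of 0.00369, 0.0404 and 0.0164 in edgeR.

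None of these passed over all genes (adjusted p = 1.00 for each, edgeR): 0 of 8 members, against 0.0451% of all genes, with 3 of 8 at the unadjusted p, against 2.65% of all genes. Without a filter on low counts edgeR called Col1a1 and Col3a1 (adjusted p = 1.01e-06 and 0.0253), and DESeq2 did not call Col1a1 (adjusted p = 0.141). Without P195A/- replicate 3, a male, the values were -0.46 for Col1a1, -0.14 for Col1a2 and -0.42 for Col3a1. Col3a1 was also -0.43 without wt replicate 3, the male of 74 days, and -0.32 without both that library and P195A/- replicate 2. The other 5 genes had log2 fold changes between -0.04 (Dcn) and -0.32 (H19).

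Over the 13 animals the pairs with the highest Pearson's r were collagen genes with each other and Dcn with Ogn, 4 of 28 pairs before adjustment and 0 of 28 after it. Pearson's r of log2 CPM was 0.75 for Col1a1 and Col3a1, 0.72 for Col1a1 and Col1a2 (permutation, adjusted p = 0.0703 for both), 0.66 for Dcn and Ogn (permutation, adjusted p = 0.112) and 0.59 for Col1a2 and Col3a1 (permutation, adjusted p = 0.234). Spearman's rho of these 4 pairs was 0.61, 0.68, 0.49 and 0.66 (permutation, adjusted p = 0.209, 0.209, 0.326 and 0.209). By Spearman's rho Col3a1 and Lum ranked above Col1a1 and Col3a1, with 0.63 (permutation, adjusted p = 0.209; Pearson's r 0.44, permutation, adjusted p = 0.368), and Dcn and Ogn ranked below Col1a2 and Lum (0.50) and Col1a1 and Lum (0.49). Without the 2 libraries farthest from the median of the first gene the r values were 0.32, 0.70, 0.26 and 0.83: the first and the third rest on those libraries, which for Col1a1 were the 2 P195A/- females. With genotype means removed they were 0.71, 0.88, 0.69 and 0.88 (permutation within genotypes, adjusted p = 0.156, 0.145, 0.156 and 0.0935).

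Against the level of other cell types, Ogn followed the 17 endothelial and mural genes, with Pearson's r = 0.83 (permutation, adjusted p = 0.0203 over 32 relations) and Spearman's rho = 0.79 (permutation, adjusted p = 0.0720). Without P195A/P195A replicates 2 and 3 its r was 0.55, and with genotype means removed 0.93 (permutation within genotypes, adjusted p = 0.186). Igf2 had the highest r of the 8 with the 46 other meningeal fibroblast genes, 0.70 (permutation, adjusted p = 0.0697; rho 0.70, permutation, adjusted p = 0.157; 0.53 without the 2 farthest libraries), and Dcn the next, 0.65 (permutation, adjusted p = 0.128; rho 0.52, permutation, adjusted p = 0.399; 0.60 without the 2 farthest libraries). With the same 46 genes r was 0.58 for Ogn, 0.53 for Col1a1, 0.35 for Col3a1, 0.29 for Col1a2, 0.24 for Lum and 0.15 for H19. Their adjusted p lay between 0.255 and 0.644 (permutation), and for Col3a1 r was 0.03 without the 2 farthest libraries. Igf2 had r = -0.11 with the 15 choroid plexus genes (permutation, adjusted p = 0.715). P195A/P195A replicate 2 had the lowest sum of the 8 genes, 109 CPM. It also had the lowest sums of the other fibroblast genes, 604 CPM, and of the endothelial and mural genes, 434 CPM. It was the smallest library.

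Of genes outside the 8 with a mean of at least 1 CPM, the 10 whose log2 level was most like the mean of the 8 over the 13 libraries were Pkp3 (r = 0.86), Sncg (0.85), Pdpr (0.83), Hsd3b7 (0.83), Zfp36 (0.82), Pomgnt2 (0.81), Foxj1 (0.81), Slmapos2 (0.81), Igfbp3 (0.78) and Ache (0.78). These r describe the top of a long list, share each library's depth and scaling, and were not tested. Igfbp3, a binding protein of insulin-like growth factors, was the only one of the 10 on a written list.

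The wider lists of the same biology held 165 genes of which 147 were tested and 0 passed edgeR's quasi-likelihood test over all genes in any comparison. Before adjustment, those under 0.05 numbered 11 of 147 for P195A/+ against wt (4.48% of all genes), 11 for P195A/P195A against wt (5.89% of all genes), 16 for P195A/- against wt (10.6% of all genes) and 6 for P195A/- against P195A/P195A (6.82% of all genes). DESeq2 called 2 in the test of any genotype difference, Igf1 and Slc6a13 (adjusted p = 0.0470 and 0.0309).

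Over all 50 other fibroblast genes the summed level was 626 to 677 CPM in P195A/+, 604 to 672 CPM in P195A/P195A, 631 to 720 CPM in P195A/- and 644 to 696 CPM in wt. Aldh1a1 and Pdgfra, with means of 121 and 68.3 CPM, weigh most in this sum. The cells their RNA came from were not resolved, so the sum does not measure fibroblast content. The median log2 fold change of the 46 tested genes was -0.09 in P195A/+ against wt, -0.05 in P195A/P195A against wt, 0.03 in P195A/- against wt and 0.10 in P195A/- against P195A/P195A. The smallest p of that list belonged to Slc6a13, a taurine and GABA transporter of leptomeningeal cells, with 4.23 ± 1.13 CPM in P195A/- and 8.12 ± 1.21 CPM in wt (SD, n = 3 each), -0.94 ± 0.22 on the log2 scale (SE, adjusted p = 0.187, edgeR). Slc22a8, an organic anion transporter, had 13.2 ± 2.2 CPM in P195A/- and 9.57 ± 0.99 CPM in wt (SD), and Col6a1 of collagen VI 23.3 ± 7.0 and 17.9 ± 1.2 CPM in the same order of genotypes (adjusted p = 0.481 and 0.518, edgeR).

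Col5a1, whose chain joins type I fibres and limits their width, led the list in P195A/- against P195A/P195A with Slc22a8 and Slc6a13, at 17.7 ± 5.0 CPM in P195A/- and 13.4 ± 1.2 CPM in P195A/P195A (SD, log2 0.40, adjusted p = 0.685, edgeR). In P195A/+ against wt the first 3 were Osr1, Col6a3 and Lama2, with log2 fold changes of 1.32, 0.66 and 0.30 and adjusted p of 0.999 each (edgeR). In P195A/P195A against wt they were Slc6a20a, Slc6a13 and Cyp1b1, with -0.31, -0.46 and -0.48 and adjusted p of 0.83 each (edgeR).

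By role, 0 of 26 tested genes of collagen processing passed in either direction in any comparison, with medians between -0.05 and 0.09. In P195A/- against wt 4 of the 26 were under 0.05 before adjustment, 2 of them higher and 2 lower, where 10.6% of all genes were. They were Pcolce2, an enhancer of procollagen cleavage (log2 -0.86 ± 0.27), Mmp14, a membrane protease that cuts collagen (0.53 ± 0.18), Loxl3, a cross-linking enzyme gene (-0.85 ± 0.34), and Serpinh1, the collagen chaperone gene (0.42 ± 0.18; SE, adjusted p between 0.281 and 0.415, edgeR). Of the other small leucine-rich proteoglycans 0 of 8 passed. Their median was -0.23 in P195A/+ against wt, -0.33 in P195A/P195A against wt, -0.09 in P195A/- against wt and 0.22 in P195A/- against P195A/P195A, and the first 3 comparisons share the wt libraries. On the insulin-like growth factor axis 0 of 19 passed. In P195A/- against wt 3 of the 19 were under 0.05 before adjustment: Igfbp7, of a binding protein, at 0.59 ± 0.22, Igf1, the other growth factor of the axis, at -0.28 ± 0.12, and Igf1r, the receptor through which both signal growth, at -0.20 ± 0.09 (SE, adjusted p between 0.354 and 0.444, edgeR). Of other imprinted genes 0 of 29 and of TGF-beta signalling, a pathway that drives collagen synthesis, 0 of 22 passed.

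Genes listed as markers of other tissues that a whole-brain sample can hold were read too. The cells their RNA came from were not resolved, so their levels do not show that a tissue was present. Of 15 skull and cartilage genes 9 were expressed highly enough to be tested. The 2 most abundant of each list were Ttr (mean 271 CPM) and Prlr of the choroid plexus, Rgs5 (116) and Slco1a4 of vessels, Stab1 (22.8) and Mrc1 of border macrophages, Hbb-bs (400.3) and Hba-a2 of blood, Calb2 (73.6) and Cdhr1 of the olfactory bulb, Gh (111) and Prl of the pituitary, Col11a2 (13) and Acan of cartilage, Acta1 (10.1) and Myh4 of muscle, and Pmp22 (13.7) and Scn7a of nerve sheath. Blood genes summed to 358 to 946 CPM in P195A/+, 235 to 542 CPM in P195A/P195A, 251 to 914 CPM in P195A/- and up to 1197 CPM in wt. Cdhr1 was the 1 listed gene that passed between 2 genotypes, lower in P195A/- than in P195A/P195A (log2 -1.92 ± 0.29, SE, adjusted p = 0.0253, edgeR), and Doc2g, Cdhr1, Omp and Sp8, all of the olfactory bulb, passed the test of any genotype difference. The part of these tissues in the values of the 8 genes was not tested beyond the relations above.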

How the data were processed

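Per the submitters' processing notes, the tools were fastp 0.19.5, Salmon and edgeR, with the mm10 build. The authors deposited estimated counts per gene, not normalized, which Salmon made per those notes. They also deposited a table of base counts per library, made with JACUSA2 2.0.0-RC5 per the file headers, from which reads at sites inside the 8 genes were taken. Whether counting used strand is not stated in what was used here. Counts were rounded, filtered by genotype (filterByExpr, 19962 genes kept) and scaled by TMM, and 13 libraries were fitted together in edgeR 4.0.16 (R 4.3.3), 1 coefficient per genotype, p adjusted by Benjamini-Hochberg over all genes tested; the biological coefficient of variation was 19.1%. Sex was tested with genotype in the fit. The fit was also run on simulated counts with the same spread for every gene, which cannot show how well it detects differences in the 8 genes. Alternatives were DESeq2 1.42.0, limma 3.58.1 (voom), other scaling, filters, terms and samples, and leaving out each library. Correlations used log2 CPM (prior count 2) and 100000 permutations in Python 3.11.15 (scipy 1.17.1). Gene positions and exon lengths, the union over a gene's transcripts, come from GENCODE M21. Its gene version numbers differ in part from those of the table. Names matched for 51482 entries.

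Members and lists were chosen with earlier results of these data known. Named genes were the 8 members, the 3 smallest p of the other fibroblast genes per comparison, listed genes that passed, the 10 most like the members and the 2 most abundant markers per tissue list. Aldh1a1 and Pdgfra, named for their levels, and the collagen processing and growth factor genes under 0.05 before adjustment in P195A/- against wt were chosen after values were seen. The authors' 4 tables of editing comparisons were not used.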

Additional observations from a re-analysis of the deposited data

How the results depend on the processing

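Over 416 leave-one-out values of the members' genotype fold changes, 388 kept their direction and stayed past no threshold, and 28 changed sign; of 326 values under the other settings, 300 did so, 23 changed sign and 3, all Col3a1, passed the threshold. The number of members called was 0 in all 78 leave-one-out counts, which cover 6 tests with each of the 13 libraries left out in turn. With DESeq2 it was 1 in P195A/- against wt, 1 in P195A/- against P195A/P195A and 1 for any difference, with females only 1 in P195A/- against P195A/P195A and 1 for any difference, and without a filter 2 for sex. Removing TMM scaling moved none of 32 genotype means by more than 1 SD. With 17 to 53 reads at an Igf2 site and as few as 2.16 estimated counts of H19, small differences could not be seen. With 3 or 4 animals per genotype, edgeR's p-values set each difference against a spread between animals that is partly shared over genes.

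Counts of genes called over all genes moved most. They were 2, 10, 7 and 8 for P195A/+, P195A/P195A and P195A/- against wt and P195A/- against P195A/P195A, 23 for any difference and 9 for sex. DESeq2 gave 19, 16, 169 and 52, then 231 and 16, and 2 genes of the matrix, growth factor, imprinted and TGF-beta lists for any difference. Without a filter edgeR gave 7 for P195A/+ against wt, 16 for P195A/- against wt, 29 for P195A/- against P195A/P195A, 54 for any difference, 97 for sex and 2 of those list genes, Acvrl1 and Igf2bp3, for sex. Fits of only the 2 genotypes compared gave 11, 5, 16 and 5. With age as a term there were 5 for P195A/P195A against wt, 1 for P195A/- against wt, 4 for P195A/- against P195A/P195A and 15 for any difference. Females only gave 0 for P195A/+ against wt, and animals of 48 days only 5 for P195A/P195A against wt. Without P195A/- replicate 2 and wt replicate 3 together, chosen after seeing the data, there were 4 for P195A/P195A against wt, 2 for P195A/- against wt, 5 for P195A/- against P195A/P195A, 9 for any difference and 5 for sex. Leave-one-out counts ran from 1 to 8, 5 to 13, 2 to 16, 5 to 15 and 11 to 47 for the 4 comparisons and any difference.

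Deviations from the genotype means correlated at -0.07 to 0.23 between same-numbered replicates (median 0.03), over 0.1 in 4 of 18 pairs. Between replicates of other numbers they correlated at -0.26 to 0.16 (median -0.02), over 0.1 in 2 of 45 pairs. These values do not settle whether the numbers pair animals. A replicate block gave 13 genes for any difference. It turned the sign of Igf2 (-0.038) and Lum (-0.025) in P195A/- against P195A/P195A and of Lum (0.13) in P195A/P195A against wt. It changed no other call.

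Signs that changed belong to log2 fold changes that were past no test. In P195A/+ against wt, H19 was -0.14 with age as a term and -0.80 in females only, Col1a2 -0.077 with age and Col1a1 0.076 in females only. In P195A/P195A against wt, H19 was -0.57 with age, -0.97 at 48 days, -0.33 in females only and -0.27 without the 2 libraries together; Col3a1 was -0.46, -0.43, -0.26 and -0.32 under the same 4 settings, and Ogn 0.016 at 48 days. In P195A/- against wt, Col1a2 was 0.13 and Dcn -0.074 in females only, and Dcn -0.044 and H19 -1.02 without the 2 libraries together. In P195A/- against P195A/P195A, Igf2 was -0.034 with limma-voom, and Col1a2 -0.10 and H19 -0.75 without the 2 libraries together. The cause was not tested.

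Leave-one-out ranges that crossed 0 were, in P195A/+ against wt, -0.10 to 0.17 for Col1a1, -0.033 to 0.26 for Lum and -0.47 to 1.41 for H19; in P195A/P195A against wt, -0.31 to 0.23 for Col3a1, -0.23 to 0.15 for Lum and -0.30 to 0.88 for H19; in P195A/- against wt, -0.33 to 0.26 for Col1a2, -0.041 to 0.14 for Dcn, -0.084 to 0.36 for Lum and -0.69 to 3.66 for H19; and in P195A/- against P195A/P195A, -0.10 to 0.47 for Col1a2, -0.037 to 0.39 for Lum, -0.33 to 0.22 for Igf2 and -0.75 to 3.33 for H19.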
